A study of Zea mays with 15 samples.

Results

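The comparison of ethephon with water at 24 h after the spray was described across genes for the meristem at the seventh internode of maize. It rested on 6 of the 15 arrays of the series, 3 of ethephon and 3 of water, all chosen by their labels. The plants were greenhouse maize (Zea mays) at the jointing stage with 8 leaves, grown at 28°C by day and 20°C by night under a photoperiod of 16 h and a humidity of 40%. For the ethephon group 100 seedlings received 600 mg/L ethephon, and for the water group 100 others received plain water. Both groups therefore shared the age, the spraying and the collection time, and they differed in the compound. Each RNA was pooled from 3 seedlings, so the p-values speak of the spread between such pools within 1 greenhouse experiment. Arrays of the same series from untreated plants at 0 h, and from both sprays at 48 h, helped to estimate the spread.

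Ethephon breaks down to ethylene inside plant cells. Ethylene binds receptors of the endoplasmic reticulum, which are active without the hormone and are switched off by it, and transcription factors of the EIN3 family then turn on response genes. In maize, ethephon is used as a growth regulator that gives shorter and sturdier stalks. Internodes lengthen from an intercalary meristem at their base, in which cytokinin, gibberellin and auxin also act, and the cells it leaves behind elongate before they lay down secondary walls. The values are MAS5 signals, which combine the probes for a transcript into a single value on a linear scale. A difference is the mean log2 signal with ethephon minus that with water, given ± its limma standard error. The tissue is a mixture of cells, and fewer cells of a type and less RNA per cell cannot be told apart.

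The third ethephon array stood apart from the other 5. Its correlations with them, over the log2 signals of all kept probe sets, ran from 0.679 to 0.854, while the other 5 correlated at 0.807 to 0.912 among themselves. On that array 118 probe sets read more than 4-fold above all 5 others and 59 more than 4-fold below, against 0 to 5 above and 6 to 18 below for each of the other arrays. Values without it are given beside the results that it moved most. The first water array read close to the ethephon arrays for several of the genes below. Over all kept probe sets it correlated at 0.901 with ethephon arrays 1 and 2, and at 0.867 and 0.886 with water arrays 2 and 3. The first ethephon array correlated at 0.901 and 0.894 with water arrays 1 and 2, and at 0.885 and 0.765 with ethephon arrays 2 and 3. These correlations thus did not separate the arrays by spray. Spike transcripts added to the samples read higher with ethephon, with no overlap between the groups, by ratios of 1.41 for BioB, 1.39 for BioC, 1.29 for BioD, 1.13 for Cre and 1.44 for Dap (exact permutation p = 0.1 each, the smallest p that 3 against 3 arrays allow, adjusted p = 0.14 over 7 measures). Their part in the differences was not tested. Array medians (345.6 to 370.4) and the 3'/5' index of control transcripts, a log2 measure of RNA quality (2.97 ± 0.16 with ethephon and 2.86 ± 0.30 with water, SD, n = 3), overlapped between the groups (exact permutation p = 0.7 each).

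The labelled tissue was checked against marker genes of meristem, dividing cells and other cell types. The homeobox gene kn1, which marks shoot meristems, read 3044, 3444 and 3582 with ethephon and 4257, 3742 and 3695 with water. Of 20 listed meristem regulators 15 passed the filter on low signals. That filter uses the mean over all 15 arrays, so it does not show presence in each group. The summed signal of the 8 kept genes of lignin and the secondary wall spanned 15410 to 40989 with ethephon and 11338 to 15648 with water. For 17 cell cycle and histone genes the sums ran from 23325 to 29237 with ethephon and from 26499 to 32081 with water. For 21 photosynthesis genes, which mark green cells, they ran from 64690 to 98788 and from 66855 to 78460, and for 3 wax genes of the epidermis from 8016 to 12738 and from 4343 to 5912. The part of cell composition in the results below was not tested.

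After adjustment over the 10573 kept probe sets, limma called 0 probe sets, which is 0.0% (lowest adjusted p = 0.375). With array weights 169 were called. The weights of arrays 1, 2 and 3 of 24 h were 0.85, 3.16 and 0.53 with ethephon and 0.56, 2.07 and 1.41 with water. The third ethephon array and the first water array thus had a low weight, and the weighted ethephon mean rested mostly on the second ethephon array. At an unadjusted p under 0.05 there were 951 probe sets, 519 higher with ethephon (4.91% of those tested) and 432 lower (4.09%). All 3 ethephon arrays lay above all 3 water arrays for 745 probe sets (7.05%) and below them for 1141 (10.8%). The median difference was -0.03. A difference of more than 1 on the log2 scale was seen for 432 probe sets upward and 301 downward. Since no gene passed, "higher" and "lower" below describe these 6 arrays, and the adjusted p of every gene named lay at 0.375 or above. Of the kept probe sets 913 could be paired with a gene, for 762 genes, and among these 40 genes were higher and 47 lower at p under 0.05, while 54 had all ethephon arrays above and 86 all below.

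**Figure D1:**
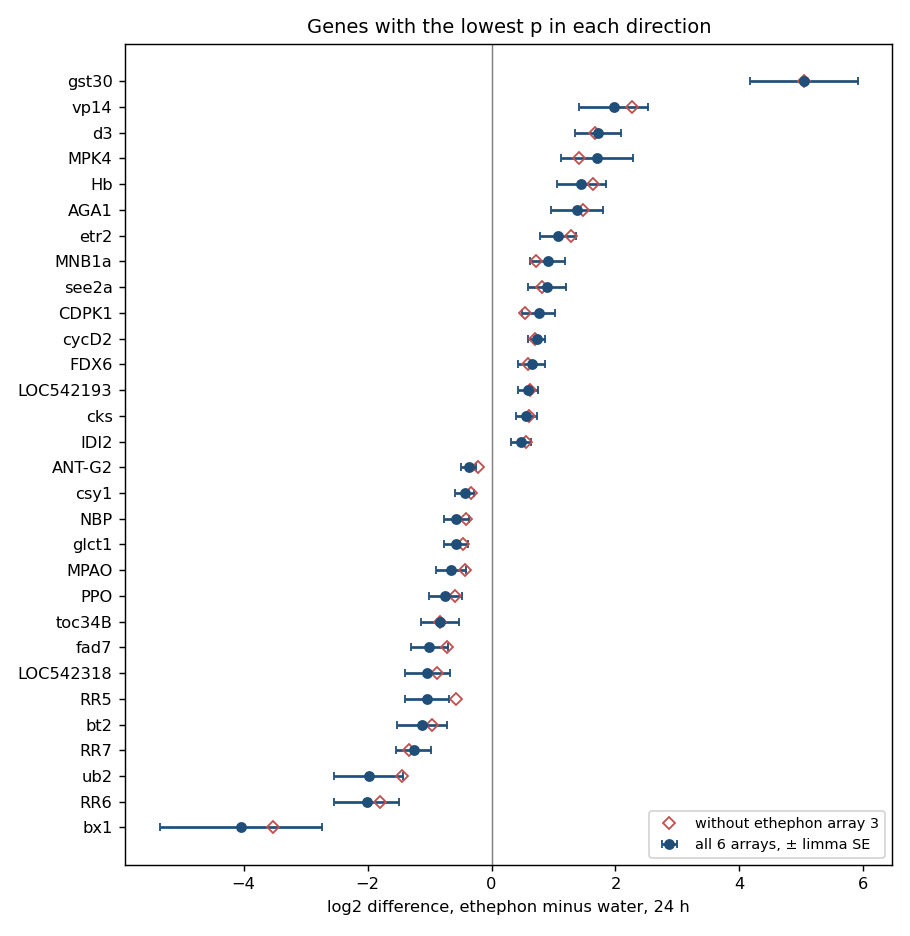
Log2 difference between ethephon and water at 24 h for the 15 genes with the lowest p among those higher and the 15 among those lower. Filled circles are the differences over all 6 arrays with limma standard errors (n = 3 against 3), and open diamonds the differences without the third ethephon array; gst30 leads at 5.04 and bx1 lies lowest at -4.04, and every gene kept its sign without that array.

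The ethylene receptor gene etr2 read higher on every ethephon array, and the other tested genes on the ethylene lists overlapped between the groups. Its signal was 728, 645 and 454 with ethephon and 411, 212 and 261 with water. The lowest ethephon array lay just above the first water array, which was the highest of its group. The difference was 1.08 ± 0.29 (unadjusted p = 0.00272, adjusted p = 0.523) and 1.34 without the first water array. The SAM synthetase gene sam2, whose product supplies the precursor of ethylene, read 10704, 11510 and 8656 with ethephon and 11955, 10828 and 11393 with water, so the groups overlapped (-0.16 ± 0.10, and -0.036 without the third ethephon array). The ACC oxidase genes, which make ethylene from ACC, lay below the filter. Of these ACO31 read 154, 172 and 176 with ethephon and 130, 113 and 147 with water, and acco20 read 79.4, 72.5 and 95.4 against 91.4, 127 and 181.

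IDI2, listed under the synonym M1Pi for a methylthioribose-phosphate isomerase of methionine salvage, the cycle that recovers methionine during ethylene synthesis, read 4637, 4073 and 3683 with ethephon. With water it read 3333, 3160 and 2454. The groups did not overlap, and the difference was small (0.48 ± 0.16). Transcription factors of the AP2/ERF family, to which ethylene response factors belong, showed no array-wise separation in any of the 4 genes kept. Their differences were 0.65 ± 0.42 for dbf1 (0.41 without the third ethephon array), 0.23 ± 0.34 for DREB2, 0.03 ± 0.28 for dbf2 and -0.13 ± 0.36 for ERF1. DREB2, dbf2 and ERF1 changed sign when single arrays were left out. EREB55, below the filter, read 63.9 to 88.9 with ethephon and 53.2 to 72.2 with water.

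The 1 gibberellin gene kept, d3, was higher with ethephon. It encodes the P450 ent-kaurenoic acid oxidase of gibberellin synthesis, and its loss makes maize dwarf. The signals were 684, 319 and 516 with ethephon and 207, 104 and 149 with water. The groups did not overlap, although both lay low on the array, with all water signals under the filter level of 218.3. The mean of d3 was 506 with ethephon at 24 h. It was 185 with ethephon at 48 h, 157 at 0 h, and 153 and 118 with water at 24 and 48 h. So d3 passed the filter only through the ethephon arrays of 24 h, and its test is no separate support for a difference. The fitted difference was 1.71 ± 0.37 (3.28-fold, unadjusted p = 0.000504, adjusted p = 0.41), and 1.66 without the third ethephon array. Other gibberellin genes fell below the filter. The ent-copalyl diphosphate synthase gene an1 read 143, 164 and 60.6 with ethephon and 230, 169 and 213 with water. The gibberellin 20-oxidase gene GA20 read 107, 120 and 160 against 95.7, 89.5 and 100.5, the kaurene synthase gene KS 27.8 to 62.7 against 23.7 to 25.8, and CPPS2 23.9 to 31.5 against 17.7 to 27.9.

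Cytokinin signalling showed its largest differences in the type-A response regulators, fast targets of cytokinin that also damp the response to it. RR6 read 216, 398 and 190 with ethephon and 813, 1008 and 1321 with water. RR7 read 108, 172 and 160 with ethephon and 316, 326 and 394 with water. Neither gene overlapped between the groups, and the differences were -2.02 ± 0.53 and -1.26 ± 0.28 (adjusted p = 0.523 and 0.422). RR5 read 525, 363 and 164 with ethephon and 607, 630 and 710 with water. It also did not overlap, but the third ethephon array was the lowest, and the difference of -1.04 ± 0.36 became -0.57 without it.

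The type-B response regulators, which are the transcription factors of the pathway, lay close to 0. RR10 read 689, 685 and 703 with ethephon and 554, 561 and 648 with water, a difference of 0.24 ± 0.15 with no overlap. RR8 lay at 0.04 ± 0.18 and RR9 at -0.06 ± 0.25, and both changed sign when single arrays were left out. Among the receptor kinases HK1 read 459, 441 and 318 with ethephon and 507, 522 and 619 with water (-0.45 ± 0.26, and -0.28 without the third ethephon array), while hk3 (-0.28 ± 0.33) and hk2 (0.24 ± 0.34) overlapped. The phosphotransfer proteins, which carry the signal from receptors to regulators, overlapped as well, at 0.28 ± 0.25 for hp2 (0.11 without the third ethephon array), -0.15 ± 0.27 for HP1 and 0.04 ± 0.34 for HP3, and HP1 and HP3 changed sign when the third ethephon array was left out.

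Of the 12 cytokinin genes kept, 7 were lower and 5 higher, with 3 lower at p under 0.05 (4.09% of all probe sets were) and 4 with all ethephon arrays below (10.8% were), and the median was -0.11 against -0.03 over all named genes. Members below the filter had signals only. The type-A gene RR4 read 87.8, 133 and 57.9 with ethephon and 144, 142 and 218 with water, which is the side on which RR5, RR6 and RR7 lay. The type-A gene abph1 read 20.3 to 33.8 with ethephon and 26.8 to 31.2 with water, and RR11 read 77.4 to 117 and 79.0 to 133. The cytokinin oxidases, which destroy the hormone, read 142 to 251 and 182 to 210 for cko3, 108 to 132 and 76.0 to 186 for cko1, and 25.8 to 78.3 and 24.7 to 38.5 for cko2. The glucosyl transferase gene ciszog1 read 58.8 to 114 and 58.8 to 81.8.

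Genes of abscisic acid and dehydration included a pair with large differences beside 3 near 0. The gene vp14 encodes the dioxygenase that commits carotenoids to abscisic acid, and it read 918, 791 and 460 with ethephon and 317, 98.8 and 177 with water. These signals did not overlap (1.97 ± 0.56). The dehydrin gene dhn1, also known as rab17, read 5997, 3673 and 6225 with ethephon but 5275, 118 and 177 with water. The first water array thus lay among the ethephon arrays, and the difference was 3.43 ± 1.34 with that array and 5.16 without it. The carotenoid gene vp9 (0.12 ± 0.22) and DIP1 (0.05 ± 0.18) overlapped and changed sign when single arrays were left out. All 5 kept genes had a difference above 0, with a median of 0.12. Higher at p under 0.05 were 2 of them (4.91% of all probe sets were).

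Jasmonate genes lay mostly above 0, in 7 of 8, with a median of 0.45. Higher at p under 0.05 were 2 of them (4.91% of all probe sets were). The oxophytodienoate reductase gene opr5 read 1502, 2025 and 3352 with ethephon and 909, 37.3 and 340 with water (3.26 ± 1.15). The lipoxygenase gene lox1 read 6933, 10322 and 10519 with ethephon and 9216, 4401 and 4144 with water. Here the first water array lay inside the ethephon range, and the difference was 0.72 ± 0.30 with it and 1.09 without it. The short-chain dehydrogenase gene ts2, known for its part in tassel sex determination, read 215, 237 and 563 against 163, 165 and 183 (0.85 ± 0.41, and 0.41 without the third ethephon array). Of the 3 auxin genes kept, the import carrier gene aux1 read 1518, 468 and 475 with ethephon and 1514, 1556 and 1071 with water (-0.97 ± 1.10). The auxin-binding protein genes abp4 (0.30 ± 0.35) and abp1 (0.02 ± 0.16) overlapped, and abp1 changed sign when single arrays were left out.

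**Figure D2:**
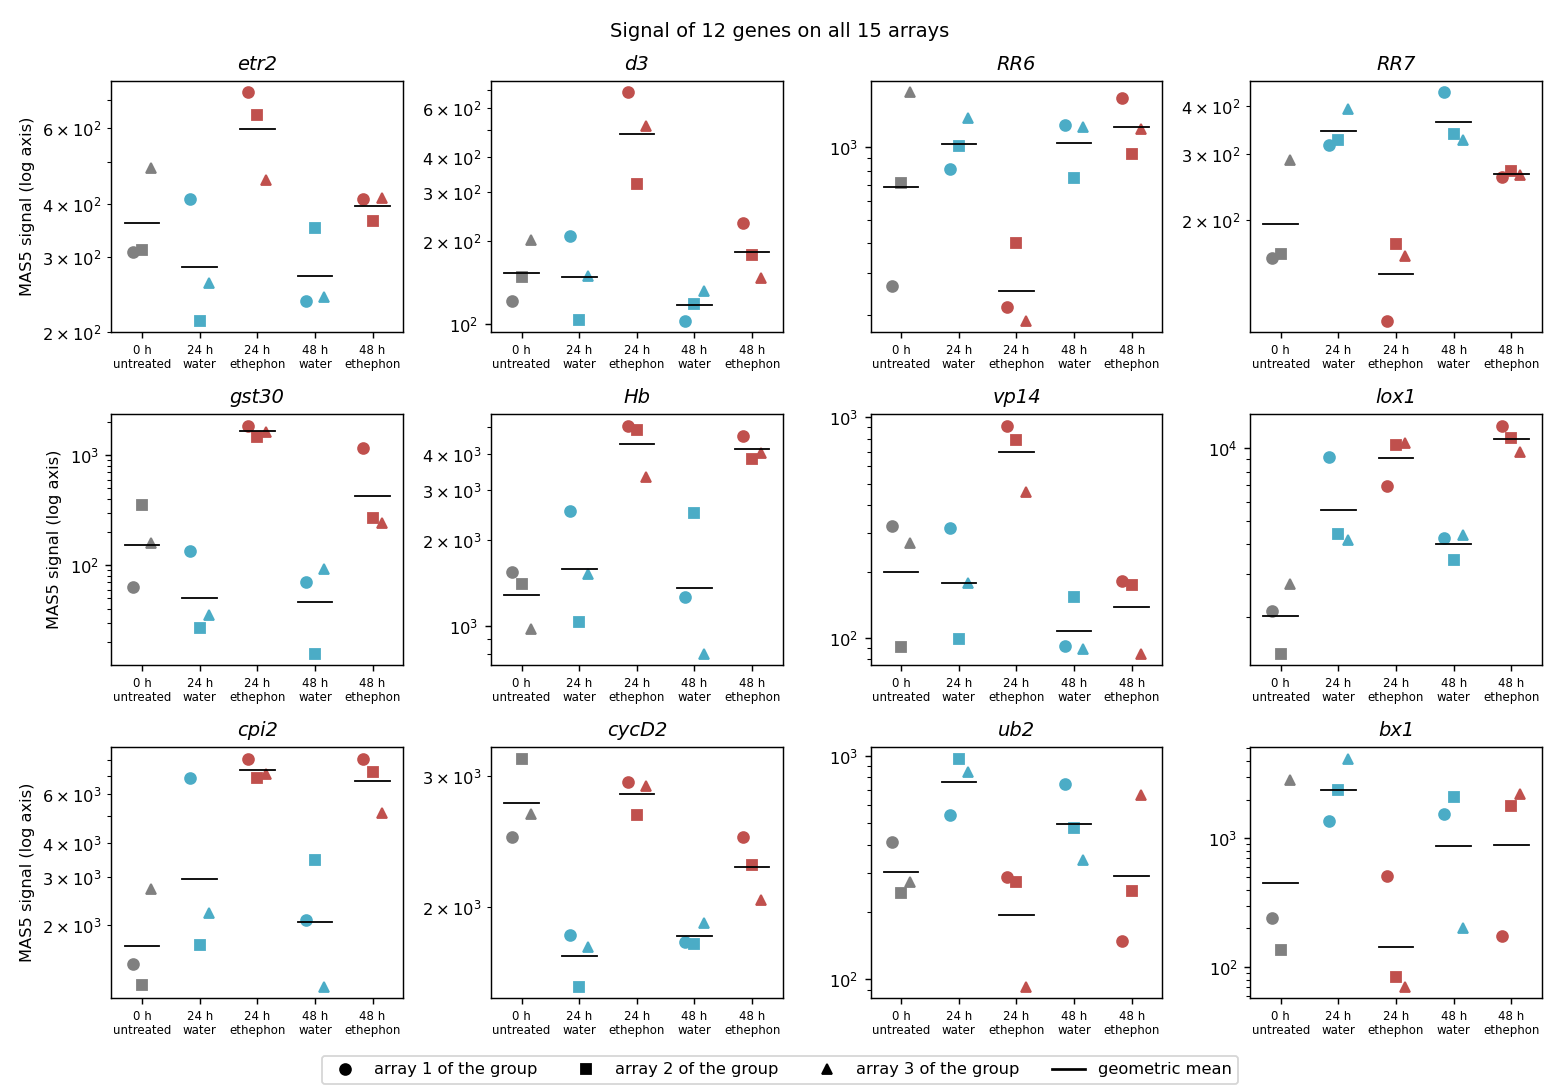
Signal (log axis) of 12 genes on all 15 arrays, by time and spray, with a marker for each array number and a bar at the geometric mean of a group. At 24 h the ethephon arrays lie above the water arrays for etr2, d3, gst30, Hb, vp14, cpi2 and cycD2 and below them for RR6, RR7, ub2 and bx1, while for lox1 the first water array (9216) lies inside the ethephon range.

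Glutathione transferases join glutathione to reactive compounds, and members of the family lay on both sides. The gene gst30 read 1860, 1476 and 1626 with ethephon and 134, 26.6 and 35.1 with water. All water signals lay below the filter level, so the fitted difference of 5.04 ± 0.87 (unadjusted p = 6.71e-05, adjusted p = 0.375) depends on dim values. The difference was 4.28 when an offset of 32 was added. The ethephon signals of 24 h alone were enough to carry gst30 over the filter, so its test is no separate support for a difference. The gene gst28 read 846, 678 and 786 against 224, 267 and 327, again without overlap (1.51 ± 0.55). On the other side gst16 read 995, 776 and 219 with ethephon and 1058, 1392 and 1347 with water (-1.18 ± 0.47), with -0.52 when the third ethephon array was left out.

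The genes gst11 and gst12, named after their values were seen, were low on the third ethephon array alone. They read 3765, 3800 and 491, and 5276, 5603 and 1180, with ethephon, against 3954 to 4489 and 4816 to 5910 with water. Without that array their differences of -1.12 ± 0.58 and -0.74 ± 0.44 became -0.14 and -0.01. The gene gst17, also chosen after its values were seen, read 1825, 2134 and 1653 with ethephon and 1869, 766 and 735 with water, another case in which the first water array lay at the ethephon level. The member with the highest signal, gst1, read 11179 to 12064 and 12344 to 13020 (-0.12 ± 0.07). In all 7 of 18 kept members were higher and 11 lower, with a median of -0.18. At p under 0.05, 2 were higher and 1 lower, where 4.91% and 4.09% of all probe sets were.

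The gene bx1 begins the synthesis of benzoxazinoids, the defence compounds of young maize. It read 511, 84.2 and 70.4 with ethephon and 1371, 2373 and 4159 with water, a wide gap with a wide spread (-4.04 ± 1.31, adjusted p = 0.545). Both other arrays of its group lay far below the first ethephon array, and even that lay below every water array. The untreated arrays of 0 h read 1079 ± 1542 (SD, n = 3). Arrays of that group thus differed widely before any spray. Other defence genes overlapped, with glu1, a beta-glucosidase that releases benzoxazinoids, at 0.13 ± 0.17 and serk1 at -0.45 ± 0.32 (-0.26 without the third ethephon array). TPS9 read 12.3, 452 and 3937 against 13.0 to 160, and its difference of 2.82 ± 1.96 became 0.91 without the third ethephon array. The median of the 9 kept defence genes was -0.08, with 3 higher and 6 lower.

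The hemoglobin gene Hb, whose product scavenges nitric oxide under low oxygen, read 5043, 4851 and 3333 with ethephon and 2533, 1034 and 1529 with water. The groups did not overlap (1.45 ± 0.39, 2.73-fold, adjusted p = 0.523). The fermentation genes pdc3 and adh2, named for their low p among the anaerobic genes, lay on the same side. Pyruvate decarboxylase pdc3 read 6933, 6539 and 6020 against 5444, 2546 and 3225 (0.87 ± 0.32), and alcohol dehydrogenase adh2 read 5195, 5731 and 6769 against 4279, 2264 and 4111 (0.78 ± 0.31). In both the first water array was the highest of its group. The 15 kept anaerobic genes, many of them glycolytic, had a median of 0.07, with 10 higher and 5 lower. At p under 0.05, 3 were higher and 1 lower, where 4.91% and 4.09% of all probe sets were. The farthest below 0 was Hb2, a second hemoglobin gene named after its values were seen, which read 81.9, 871 and 1205 with ethephon and 1154, 643 and 2250 with water (-1.43 ± 0.93, and -2.15 without the third ethephon array), with overlap.

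Cysteine proteases and their inhibitors lay on the higher side. All 10 kept genes had a difference above 0, with a median of 0.60, and 5 had p under 0.05 and 5 all ethephon arrays above the water arrays, where 4.91% and 7.05% of all probe sets did. Without the third ethephon array 9 of 10 were higher with a median of 0.48, and without the first water array 8 of 10 with 0.76. The legumain gene see2a, first known from senescing maize leaves, read 546, 644 and 691 with ethephon and 326, 303 and 385 with water (0.89 ± 0.31). The protease gene mir2, of a group known from insect-resistant maize, read 737, 867 and 1338 against 669, 531 and 587 (0.68 ± 0.24, and 0.43 without the third ethephon array).

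The cystatins, inhibitors of such proteases, read high on the first water array too. The cystatin gene cpi2 read 8057, 6899 and 7123 with ethephon and 6870, 1686 and 2220 with water (1.31 ± 0.49, and 1.92 without the first water array). A second probe set of cpi2 overlapped, at 4861 to 5774 with ethephon and 2081 to 4995 with water (0.93 ± 0.36). Cystatin, chosen after its values were seen like cys2 below, read 9214, 7918 and 8733 against 8013, 3370 and 3489 (0.92 ± 0.35). The protease gene cys2 read 7269, 7143 and 6656 against 6792, 4051 and 4211 (0.53 ± 0.21). The first water array lay among or next to the ethephon arrays for all 3. The brightest protease gene, ccp1, read 6543, 9884 and 9509 against 5790, 7129 and 7143 (0.35 ± 0.21), with overlap.

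Redox genes also all lay above 0, in 10 of 10, but by little, with a median of 0.26. Higher at p under 0.05 was 1 of them (4.91% of all probe sets were). Catalase cat1 read 3667, 4565 and 6326 with ethephon and 4067, 2473 and 2877 with water (0.62 ± 0.26, and 0.41 without the third ethephon array), so it overlapped. The thioredoxin genes, for small disulfide reductases, lay at 0.20 ± 0.09 for trxh1 and 0.24 ± 0.13 for trh2. Heat shock proteins and chaperones had a median of -0.11 (6 higher, 12 lower), which was 0.02 without the third ethephon array. Of the 18 kept members 4 were named by p or signal, HSP18, a small heat shock protein gene, at 0.78 ± 0.35, the disulfide isomerase genes pdi6 at 0.32 ± 0.18 and pdi8 at -0.28 ± 0.16, and hsp70-4 at -0.01 ± 0.09, which changed sign when the third ethephon or the first water array was left out. The member farthest below 0 was hsp18c, named after its values were seen, which read 767, 596 and 135 with ethephon and 999.5, 778 and 826 with water (-1.13 ± 0.75, and -0.35 without the third ethephon array).

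Among cell cycle genes the D-type cyclin gene cycD2 was higher and most others were lower. D-type cyclins drive the step from growth to DNA synthesis. The signals of cycD2 were 2945, 2660 and 2911 with ethephon and 1829, 1559 and 1766 with water, tight in both groups and far apart (0.73 ± 0.13, 1.65-fold, unadjusted p = 0.000106, adjusted p = 0.375). The spindle checkpoint gene mad2 read 180, 75.5 and 56.3 with ethephon and 250, 511 and 184 with water (-1.65 ± 0.64), just without overlap. CDC5 read 515 to 624 against 669 to 787 (-0.31 ± 0.19). Of 17 kept genes 14 were lower and 3 higher, with a median of -0.31. Only 1 had p under 0.05 in each direction (4.91% of all probe sets were higher and 4.09% lower). All ethephon arrays lay below for 2 of the 17, near the share of 10.8% over all probe sets.

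The replication genes, named here after their values were seen, split the arrays in another way. The clamp gene pcna1 read 886, 300 and 497 with ethephon and 429, 1980 and 1328 with water (-1.03 ± 0.83). The helicase gene MCM7 read 582, 134 and 279 against 211, 969 and 528 (-0.77 ± 0.78). Both were low on ethephon arrays 2 and 3 and on water array 1. The linker histone gene his1a, the brightest of the list, read 7522 to 11545 and 8415 to 11439 (-0.02 ± 0.16), and it changed sign when single arrays were left out.

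Meristem regulators lay mostly below 0, in 12 of 15, with a median of -0.41, or -0.33 without the third ethephon array. Of these 5 had all ethephon arrays below the water arrays, where 10.8% of all probe sets did, and 1 was lower at p under 0.05, where 4.09% were. Growth-regulating factors promote cell division in young organs. GRF2 read 216, 64.5 and 110 with ethephon and 503, 487 and 233 with water (-1.74 ± 0.78). GRF5 read 456, 342 and 463 against 559, 768 and 883 (-0.80 ± 0.38), and GRF12 read 418, 302 and 271 against 447, 440 and 448 (-0.46 ± 0.24). All 3 lay lower on every ethephon array, as did kn1, whose signals stand above (-0.22 ± 0.15). The gene ub2, an SBP-box factor that was not on the list, read 288, 272 and 92.5 with ethephon and 544, 969 and 848 with water (-1.98 ± 0.55, and -1.45 without the third ethephon array).

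The secondary-wall genes were high on the third ethephon array and near the water level on the other 2. The secondary-wall cellulose synthase gene cesa10 read 182, 90.7 and 5020 with ethephon and 176, 340 and 114 with water. On the same arrays cesa11 read 242, 300 and 5427 against 256, 327 and 295, and CesA12 read 428, 326 and 5611 against 429, 643 and 187. The COBRA-like gene bk2, whose loss gives brittle stalks, read 58.9, 117 and 5925 against 61.0, 53.3 and 85.7. The cinnamoyl-CoA reductase gene ccr2 of lignin synthesis read 72.4, 48.6 and 2772 against 164, 149 and 64.2. In these 5 genes, all chosen after their values were seen, the group means with ethephon come from a single array.

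With and without that array the differences were 1.20 ± 1.37 and -0.56 for cesa10, 1.33 ± 1.16 and -0.11 for cesa11, 1.31 ± 1.02 and 0.01 for CesA12, 2.40 ± 1.87 and 0.35 for bk2, and 0.88 ± 1.28 and -0.97 for ccr2. The median of the lignin and secondary-wall list was 1.04 with 7 of 8 genes higher, and -0.15 with 3 of 8 higher when the array was left out. High signals of the same genes were also seen on other arrays of the series, for cesa10 at 4184 and 2333 on the first and second ethephon arrays of 48 h, 1794 and 1062 on untreated arrays 2 and 3 and 1332 on the third water array of 48 h. The third ethephon array of 48 h read 315 and the first untreated array 160, so cesa10 varied between arrays of the same group. The cause was not tested.

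**Figure D3:**
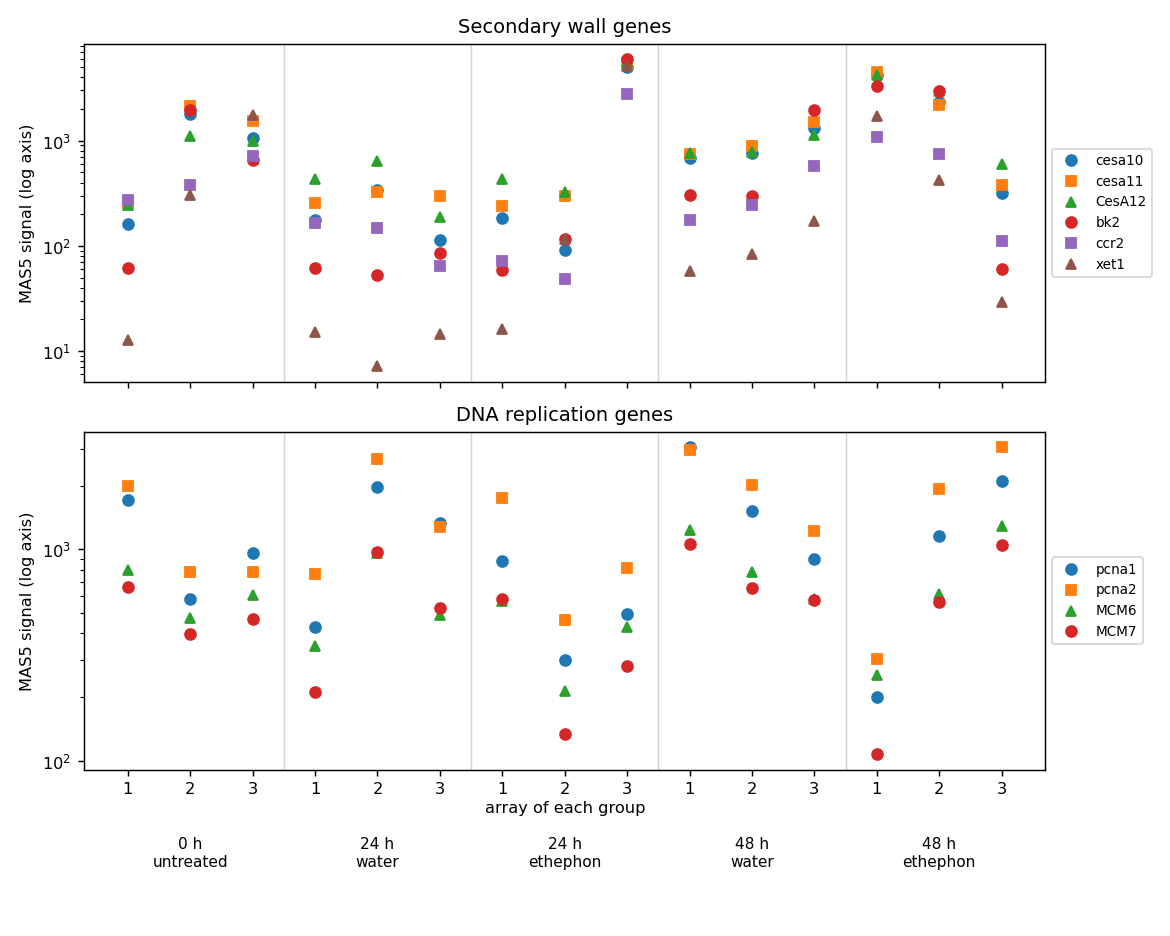
Signal (log axis) of 5 secondary-wall genes, the wall-loosening gene xet1 and 4 DNA replication genes on each of the 15 arrays. The arrays are grouped by time and spray, with 1 symbol for each gene. At 24 h the wall genes reach 2772 to 5925 on the third ethephon array and stay at 643 or below on the other 5, and pcna1 runs from 300 on the second ethephon array to 1980 on the second water array.

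Other lignin genes depended on the third ethephon array to different degrees. Phenylalanine ammonia-lyase PAL1, the entry to phenylpropanoids, read 9313, 11515 and 11489 with ethephon and 10087, 6915 and 6084 with water (0.51 ± 0.23), and the first water array lay inside the ethephon range. The ligase gene 4CL read 1658, 1289 and 4391 against 1036, 1001 and 650, without overlap (1.27 ± 0.55, and 0.74 without the third ethephon array). The peroxidase gene pox1 read 1640, 970 and 191 against 1329, 1897 and 1190 (-1.10 ± 0.60 with that array and -0.19 without it). BM1, a gene of brown midrib plants also chosen after its values were seen, lay at 0.21 ± 0.46, and at -0.33 without that array.

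The primary-wall cellulose synthase genes lay modestly above 0. The gene cesa7 read 4273, 5318 and 5974 with ethephon and 3134, 3018 and 3924 with water, without overlap (0.62 ± 0.32). CesA-9 (0.49 ± 0.30) and CesA-4 (0.60 ± 0.40) overlapped. Over the 13 kept members of the cellulose list, bk2 among them, 11 were higher. None had p under 0.05, where 4.91% of all probe sets were higher and 4.09% lower. The median was 0.49, or 0.12 with 9 higher when the third ethephon array was left out. Of the wall-loosening genes the xyloglucan endotransglycosylase gene xet1 read 16.3, 115 and 5067 against 15.3, 7.16 and 14.5 (4.18 ± 2.11, and 1.89 without that array). The beta-expansin gene expB3 read 488, 309 and 367 against 156, 281 and 178 (0.94 ± 0.59), and expB8, the brightest, overlapped (-0.34 ± 0.17, and -0.19 without that array). A second probe set of expB8 lay on the other side of 0 and overlapped too (0.31 ± 0.26). Of 9 kept wall-loosening genes, 6 were higher and 3 lower (median 0.42). None had p under 0.05, where 4.91% of all probe sets were higher and 4.09% lower. The gene cks, for a CMP-KDO synthetase that serves pectin synthesis, read 3248, 3049 and 2876 against 2664, 1624 and 2041 (0.56 ± 0.17).

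The cytoskeleton list was centred near 0 (5 higher, 9 lower, median -0.02), and without the first water array 13 of 14 members were lower with a median of -0.23. Its alpha-tubulin gene tua6 read 3851, 4881 and 3090 against 4012, 5896 and 8488 (-0.60 ± 0.28). The beta-tubulin gene TUBB2 (-0.26 ± 0.26), the actin-severing factor gene ADF3 (0.17 ± 0.12) and the brightest member tua4 (-0.03 ± 0.10) overlapped, and tua4 changed sign when single arrays were left out. Aquaporins, the water channels, had a median of 0.23 (14 of 20 higher) and 0.09 without the third ethephon array. The vacuolar channel gene tip3a read 208, 525 and 703 against 60.5, 267 and 186 (1.56 ± 0.67, and 0.93 without the first water array), and its signals overlapped. The plasma membrane channel genes pip2b (0.86 ± 0.59) and pip2c (0.45 ± 0.38) overlapped as well. Without the third ethephon array they lay at 0.31 and 0.11. The gene pip1b (0.08 ± 0.18) changed sign when single arrays were left out. Lsi6, a silicon channel chosen after its values were seen, read 17.3, 17.7 and 1515 with ethephon and 16.4 to 24.5 with water.

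**Figure D4:**
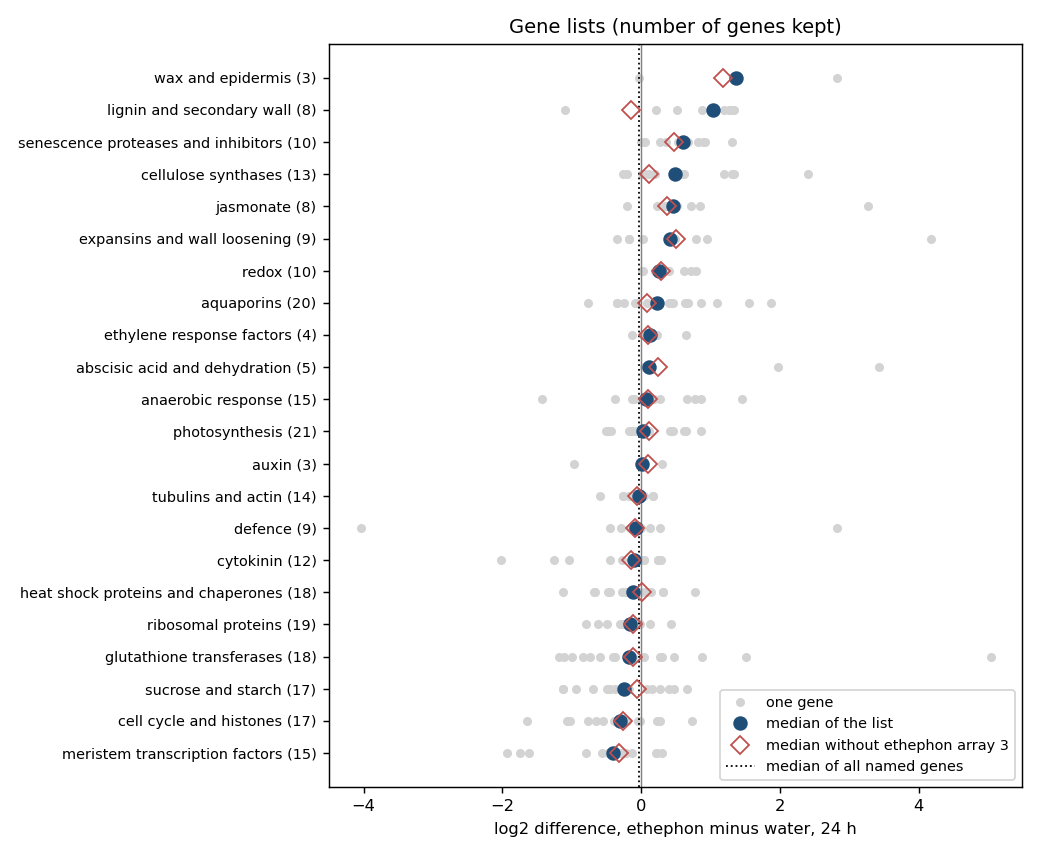
Log2 differences between ethephon and water at 24 h for the kept genes of 22 lists with 3 or more kept genes (grey points), with the list median over all 6 arrays (filled circle) and without the third ethephon array (open diamond); the dotted line marks the median of all 762 named genes, -0.03. The median of lignin and secondary-wall genes goes from 1.04 to -0.15 without that array, and that of senescence proteases and inhibitors from 0.60 to 0.48.

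Ribosomal protein genes lay slightly lower in 17 of 19, with 3 at p under 0.05 (4.09% of all probe sets), 8 with all ethephon arrays below (10.8% of all) and a median of -0.17. The same 17 to 2 split was seen without the third ethephon array (median -0.12). The gene rps13 read 5699, 5170 and 5542 with ethephon and 6519, 6235 and 6567 with water (-0.24 ± 0.10). RPL10 read 7069, 6125 and 6405 against 7341, 8203 and 7465 (-0.23 ± 0.10), rpl29 1737, 2254 and 1332 against 2317, 3017 and 2684 (-0.62 ± 0.27), and the brightest, rps27, overlapped (-0.15 ± 0.12). The step is small. The first 3 separated the groups, but they were named for the lowest p of the list, so their separation is no separate evidence. A second probe set of RPL10 overlapped (-0.14 ± 0.14). It read 6293, 5791 and 5607 with ethephon and 5790, 7024 and 6784 with water.

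Starch and sucrose genes lay lower in 11 of 17, with a median of -0.25, or -0.06 without the third ethephon array. Lower at p under 0.05 were 3 of them (4.09% of all probe sets were). The small subunit gene bt2 of ADP-glucose pyrophosphorylase, which commits sugar to starch, read 284, 182 and 160 with ethephon and 428, 525 and 383 with water (-1.13 ± 0.40). GLG1, another gene of that enzyme by its synonym, read 943, 868 and 546 against 1038, 1152 and 953 (-0.45 ± 0.19, and -0.21 without the third ethephon array, the lowest). Sucrose synthase ss2 read 8966, 8518 and 9570 against 9389, 13098 and 12953 (-0.37 ± 0.16). Both pyrophosphorylase genes separated the groups, and ss2 overlapped.

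Of the photosynthesis genes 12 were higher and 9 lower, with a median of 0.02. Without the third ethephon array 16 were higher and 5 lower (median 0.11), and with array weights 17 and 4 (median 0.25). The ferredoxin gene FDX6 read 5054, 8870 and 7598 with ethephon and 5080, 4602 and 3795 with water (0.65 ± 0.22), with a narrow overlap. Pyruvate phosphate dikinase pdk1 (0.62 ± 0.32, and 1.05 without that array) and the ferredoxin gene fdx3 (0.41 ± 0.24) overlapped. Of the wax genes gl1 read 211, 908 and 894 with ethephon and 180, 31.7 and 85.1 with water, the first water array just below the lowest ethephon array (2.82 ± 1.09), and the lipid transfer gene plt2 read 5770, 7519 and 9760 against 3791, 2322 and 2761 (1.37 ± 0.51). Both separated the groups, while gl8, a reductase gene of fatty acid elongation, did not (-0.02 ± 0.20, with a change of sign when 1 array was left out).

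Signalling and metabolic genes outside the lists filled the rest of the lowest p-values, and they were named for their p in this comparison, so their separation is no separate evidence. The MAP kinase gene MPK4 read 486, 498 and 912 with ethephon and 441, 153 and 94.2 with water (1.71 ± 0.58). The calcium-dependent kinase gene CDPK1 read 1022, 1172 and 1728 against 723, 699 and 846 (0.76 ± 0.26). The alkaline alpha-galactosidase gene AGA1 read 3034, 3297 and 2603 against 1949, 807 and 940 (1.38 ± 0.42), and the Dof factor gene MNB1a read 3241, 3552 and 4965 against 2763, 1577 and 2002 (0.90 ± 0.28). All 4 separated the groups, with the first water array nearest to the ethephon arrays in 3 of them. LOC542193, known here only by its ID, lay at 0.59 ± 0.16.

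The lower genes with the lowest p had various functions. The desaturase gene fad7, which makes linolenic acid in plastids, read 698, 760 and 402 with ethephon and 762, 1479 and 1533 with water, where the first water array was next to the highest ethephon array (-1.01 ± 0.30). The import receptor gene toc34B read 791, 600 and 698 against 1019, 1511 and 1205 (-0.83 ± 0.30), and the plastid glucose translocator gene glct1 read 1901, 1588 and 1332 against 1955, 2597 and 2655 (-0.58 ± 0.19). PPO, protoporphyrinogen oxidase by its synonym, lay at -0.74 ± 0.26, and csy1, a SecY translocase gene by its synonym, at -0.43 ± 0.16. These 5 did not overlap between the groups. The mitochondrial ADP/ATP carrier gene ANT-G2 (-0.37 ± 0.12, and -0.22 without the third ethephon array), NBP (-0.57 ± 0.20) and LOC542318 (-1.03 ± 0.37) did not overlap either, and the polyamine oxidase gene MPAO did (-0.65 ± 0.24, and -0.42 without that array).

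The probe sets with the lowest p but no gene name were Zm.12139.1.A1_at and Zm.5781.1.A1_at among the higher ones and Zm.4517.1.A1_at and Zm.5652.1.A1_at among the lower ones. The first read 2425, 2191 and 2738 with ethephon and 1137, 406 and 337 with water (2.18 ± 0.39). The next read 11891, 12556 and 12867 against 7139, 8759 and 5688 (0.81 ± 0.15). The lower pair differed by -2.61 ± 0.57 and -1.22 ± 0.30. All 4 separated the groups without passing adjustment.

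At 48 h, with other RNA pools and other water controls, the 15 genes with the lowest p among the higher ones at 24 h were again above 0 in 15 of 15 cases (median 0.36), where 69.3% of all named genes higher at 24 h were. Without the first ethephon array of 48 h, which read high for the wall genes, 14 of 15 were above 0, where 51.5% were. The 15 lower genes were below 0 at 48 h in 11 of 15 cases (median -0.20, against 65.4% of all lower named genes), and in 10 of 15 without that array (52.1%). The 4 exceptions were RR6 (0.23), RR5 (0.15), MPAO (0.07) and bx1 (0.02). Among genes near or beyond their 24 h difference at 48 h were Hb (1.61), MPK4 (1.57), lox1 (1.46) and cpi2 (1.71), while vp14 (0.36), gst28 (0.14) and cycD2 (0.31) were smaller. The difference between the 2 times passed for no probe set with limma (lowest adjusted p = 1.00).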

How the data were processed

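RNA of 15 pools was hybridised to Affymetrix maize genome arrays after biotin labelling of 200 ng total RNA with the 3' IVT Express kit, per the labels. The deposited values are intensity values: the authors made them with MAS5 on a linear scale, as the submitters' processing notes name. The MAS5 version, scaling target and detection calls are not given in the sources used here.

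Signals were taken to log2 with no offset and no further normalization. Of 17621 probe sets other than the 113 controls, 10573 with a mean signal over the 15 arrays at or above the 40th percentile (218.3) were kept. Group means of 5 groups were fitted with limma 3.58.1 in R 4.3.3 (trended moderation), with Benjamini-Hochberg adjustment over the kept probe sets and a threshold of 0.05. The script was tested on simulated data. Array measures were compared by two-sided exact permutation. Python 3.11.15, pandas 2.3.3 and matplotlib 3.10.9 made tables and figures. The number of arrays limits the precision.

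Names came from the platform's annotation and RefSeq synonyms (Zm-B73-REFERENCE-NAM-5.0), without coordinates: 1452 probe sets named 1108 genes, and 16169 had no single gene name. The probe set with the highest mean signal stood for its gene. The genes, lists and comparison were chosen with earlier results of these data known. The 25 lists were built from gene names with 53 corrections, among them the removal of cks and 2 kinesin genes from the cell cycle list after values had been seen. Named were the 15 lowest p in each direction, all kept ethylene, gibberellin and cytokinin genes, the 3 lowest p and the brightest gene of each other list, weaker members of the hormone lists by signals alone, and 2 unnamed probe sets in each direction. Replicate numbers were not taken to pair arrays. Alternatives were other normalization, scaling, offset, filters, arrays, weights, moderation, an index covariate, a replicate block and leaving out each array.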

Additional observations from a re-analysis of the deposited data

How the results depend on the processing

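Limma called 169 probe sets with array weights and 0 in the other alternatives that kept all arrays, and leaving out 1 array at a time gave 0 to 2 calls, the 2 without the first water array. The cause was not tested. Of the 1916 pairs of a named gene and a setting, 1853 kept the sign with no call, 22 were called, each with array weights, and 41 had the opposite sign. Probe sets at p under 0.05 numbered 1489 higher and 1376 lower with array weights, 838 higher with no filter, and 204 to 778 higher and 124 to 660 lower when 1 array was left out. Non-overlapping probe sets numbered 1298 above with no filter (more tested), 712 below with the filter at the 60th percentile (fewer tested), and 902 to 1961 above and 1386 to 2256 below when 1 array was left out. Among probe sets that did not overlap, 769 lay above and 1033 below after quantile normalization, and 819 and 956 after scaling to the 75th percentile.

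Signs changed for these differences. With array weights ERF1 was 0.023, HP3 -0.20, hsp70-4 0.089, cesa10 -0.36, ccr2 -0.42 and BM1 -0.15. DIP1 was -0.017 after quantile normalization, and gl8 was 0.014 when the fit held the 3'/5' index. Leaving out 1 array gave -0.11 to 0.58 for DREB2, -0.0081 to 0.21 for vp9, -0.29 to 0.012 for HP1, -0.022 to 0.24 for pip1b, -0.31 to 0.0022 for ERF1, -0.13 to 0.025 for tua4 and -0.050 to 0.22 for DIP1. It gave -0.21 to 0.17 for RR9, -0.056 to 0.14 for RR8, -0.085 to 0.080 for gl8, -0.16 to 0.15 for his1a, -0.091 to 0.21 for dbf2, -0.063 to 0.14 for abp1, -0.26 to 0.24 for HP3 and -0.059 to 0.069 for hsp70-4. It gave -0.56 to 2.33 for cesa10, -0.11 to 2.13 for cesa11, -0.97 to 1.94 for ccr2, -0.33 to 0.52 for BM1 and -0.27 to 2.96 for Lsi6.

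With replicate number as a block limma called 0 probe sets, with 432 higher and 361 lower at p under 0.05. The numbers were not taken to pair the arrays, since the deviations of same-numbered arrays correlated at -0.149, -0.357 and 0.0719. The signals at 48 h without the first ethephon array were an alternative chosen after seeing the data. Signals near the filter level, as those of gst30, d3 and bx1 in their lower group, limit what their fold differences show.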
